A study of Homo sapiens with 6 samples.

Results

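Estrogen and tamoxifen metabolism was described through 9 genes, read from the compartment of the chromatin that holds them in T47D breast cancer cells. The genes were CYP19A1 and HSD17B1 for estrogen synthesis, CYP1A1, CYP1B1, CYP2D6 and CYP3A4 for oxidation, and SULT1E1, UGT2B15 and UGT2B7 for conjugation. They were chosen by name, and for each gene the score of the 100 Kb bins that overlap its body and of 5 bins on either side was read in every library. All 9 genes had a score in all 6 libraries, among 19707 scored protein-coding genes. Their bodies lay in 11 bins and their windows in 91 distinct bins of the 27898 bins scored in every library. T47D is an established estrogen receptor-positive line. Parental T47D cells were starved of hormone for 72 h and taken before 100 nM β-estradiol (E2) was added (T0, labelled untreated) or after exposure to it for 1 h at T1, 4 h at T4, 16 h at T16 or 24 h at T24. Tamoxifen-resistant T47D cells (TamR) were the sixth condition, labelled untreated, while the study's methods describe TamR culture in medium with charcoal-stripped serum and 100 nM tamoxifen. Compartments were measured with TCC, a form of Hi-C with ligation on a solid surface, with 1 library per condition, so no difference has a replicate check and no p-value is given. TamR cells differed from the parental cells in resistance, in tamoxifen and in culture at once, and these cannot be told apart.

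Estrogens are made from androgens by aromatase, the product of CYP19A1, and estrone is reduced to the more potent estradiol by the enzyme of HSD17B1. Cytochrome P450 enzymes then hydroxylate estrogens and convert tamoxifen to its active metabolites, and sulfotransferases and UDP-glucuronosyltransferases add sulfate or glucuronic acid, which makes steroids and drugs water-soluble and mostly inactive. Compartment A holds open, gene-rich chromatin and compartment B closed chromatin, and a gene's compartment is not a measure of its transcription. The files used here hold no expression values, so neither the activity of these genes nor the identity of the cells was checked.

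The sequences just before the RefSeq starts of 4 of the genes are shown because UGT2B15, UGT2B7 and SULT1E1 share a region of chromosome 4 that lay at or below the A/B border, and CYP1A1 lay deep in A. Of the 9 genes, 6 matched the RefSeq promoter table, and the 250 bases before each RefSeq start were found once on the gene's chromosome in GRCh37, the same assembly as hg19. They lie at chr4:69536371-69536620 on the minus strand for UGT2B15, chr4:69961942-69962191 on the plus strand for UGT2B7, chr4:70725864-70726113 on the minus strand for SULT1E1 and chr15:75017870-75018119 on the minus strand for CYP1A1. The RefSeq start of UGT2B7 lies downstream of its GENCODE start, so its stretch lies inside the gene body scored here, and the stretch of CYP1A1 overlaps its GENCODE body by a few bases. Each is written 5′ to 3′ on the gene's strand. Capitals mark CG dinucleotides and the letters AGGTCA, the core motif of many nuclear receptors, searched on both strands after the sequences had been read.
UGT2B15: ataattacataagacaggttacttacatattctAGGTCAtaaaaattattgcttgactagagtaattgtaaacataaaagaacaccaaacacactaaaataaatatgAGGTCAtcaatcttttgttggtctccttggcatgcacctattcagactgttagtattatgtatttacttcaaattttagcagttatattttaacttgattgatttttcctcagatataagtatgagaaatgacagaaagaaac
UGT2B7: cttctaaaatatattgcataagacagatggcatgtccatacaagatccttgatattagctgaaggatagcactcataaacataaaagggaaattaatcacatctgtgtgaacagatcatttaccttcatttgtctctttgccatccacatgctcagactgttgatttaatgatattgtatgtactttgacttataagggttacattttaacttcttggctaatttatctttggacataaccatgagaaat
SULT1E1: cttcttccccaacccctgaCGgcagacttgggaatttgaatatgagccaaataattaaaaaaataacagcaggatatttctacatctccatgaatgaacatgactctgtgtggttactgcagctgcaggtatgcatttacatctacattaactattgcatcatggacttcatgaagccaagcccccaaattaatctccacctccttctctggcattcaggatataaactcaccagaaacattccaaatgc
CYP1A1: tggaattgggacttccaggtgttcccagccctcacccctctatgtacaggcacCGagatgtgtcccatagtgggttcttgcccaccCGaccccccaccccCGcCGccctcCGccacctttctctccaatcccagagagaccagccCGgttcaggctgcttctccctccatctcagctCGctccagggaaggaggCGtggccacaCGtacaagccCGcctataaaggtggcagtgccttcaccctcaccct
The stretches before UGT2B15 and UGT2B7 held no CG, had a GC content of 28.4% and 32.8%, and were identical at 157 of 269 aligned positions (58.4%, gaps counted). No other pair was aligned, and the part of base composition in this identity was not tested. The stretch before SULT1E1 had a GC content of 40.8% and 1 CG. The stretch before CYP1A1 had a GC content of 62.4% and 10 CG, beside medians of 58.0% and 11 over 27305 RefSeq promoters of the same length. The letters AGGTCA occurred 2 times before UGT2B15 and were absent from the other 3 stretches shown, and 12.1% of all promoters hold them on either strand. GCGTG, the core letters bound by the aryl hydrocarbon receptor that induces CYP1A1, occurred 1 time before CYP1A1 and in 31.9% of all promoters. Among the stretches shown, TATAAA occurred 1 time before CYP1A1 and 1 time before SULT1E1, and it occurred in 11.1% of all promoters.

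The authors deposited, for each library, the first eigenvector of contacts between chromosomes as 1 score per 100 Kb bin of hg19. A score above 0 places a bin in A and a score below 0 in B, and scores are given here multiplied by 1000. Scores are scaled within each library, so a difference between libraries is relative to all other bins. Pearson correlations across bins were 0.985 to 0.996 between parental libraries and 0.894 to 0.901 between TamR and parental libraries, so TamR stood apart over the whole genome and many genes share its direction. The files give no read or contact numbers, so the depth of a score is unknown. The spread over the 5 parental libraries, which are different conditions and not replicates, had a median SD of 0.436 over all bins and is the only scale of variation available.

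Of the 9 genes, 8 lay in A at T0, 7 at T1, 8 at T4, 8 at T16, 6 at T24 and 6 in TamR. Of all 19707 protein-coding genes, 15262 lay in A at T0, 15270 at T1, 15349 at T4, 15188 at T16, 14932 at T24 and 15399 in TamR. The 6 genes in A in all libraries were CYP19A1, HSD17B1, CYP1A1, CYP1B1, CYP2D6 and CYP3A4, next to 71.6% of all protein-coding genes. SULT1E1 was the 1 gene in B in all libraries, where 16.6% of all genes lay. UGT2B15 and UGT2B7 were the 2 genes that lay in A at T0 and in B in TamR, which held for 4.46% of all genes. These neighbours of 1 region are not independent counts. No member lay in B at T0 and in A in TamR, as 5.15% of all genes did.

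**Figure D1:**
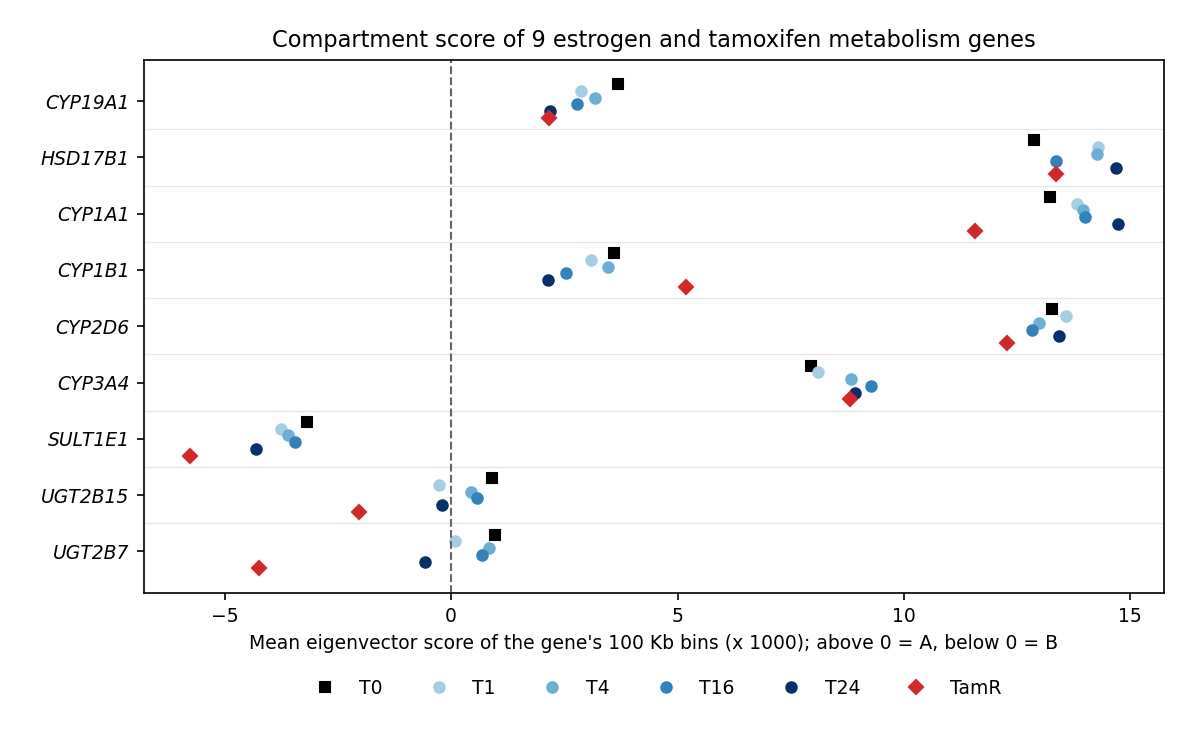
Mean score of each gene's 100 Kb bins (x axis, score multiplied by 1000, dashed line at the A/B border of 0) in T0 (black square), T1 to T24 (blue circles, darker with time) and TamR (red diamond), with 1 point per library. HSD17B1, CYP1A1, CYP2D6 and CYP3A4 sit above 7 in every library, and UGT2B15 and UGT2B7 are the genes whose points lie on both sides of the border.

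Among the estrogen synthesis genes, both stayed in A, HSD17B1 far inside it and CYP19A1 at a lower score. CYP19A1 (ENSG00000137869.16_13, chr15:51500254-51630798, minus strand, body in 2 bins) encodes aromatase. Its score was 3.67 at T0, 2.88 at T1, 3.17 at T4, 2.79 at T16, 2.19 at T24 and 2.17 in TamR. T0 was the highest library and all E2 libraries lay below it, by 0.92 for their mean, while T24 and TamR differed by less than the parental SD of 0.54. The 12 bins of its window showed a wider gap, with a parental mean of 4.08 and a TamR mean of 1.86. TamR lay below all 5 parental libraries in 11 of the 12, beside 12165 of all 27898 scored bins. The exception was a bin of CYP19A1 itself, with 1.914 in TamR and 1.906 at T24. Its other bin had 2.43 in TamR and 2.48 at T24. Adjacent bins are not independent counts. The A stretch around CYP19A1 spanned 26 bins at T0, 23 at T24 and 18 in TamR, drawing in at both ends in TamR.

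HSD17B1 (ENSG00000108786.11_9, chr17:40704940-40707232, plus strand) encodes the dehydrogenase that forms estradiol from estrone. Its score was 12.87 at T0, 14.29 at T1, 14.27 at T4, 13.35 at T16, 14.69 at T24 and 13.35 in TamR. All 4 E2 libraries lay above T0, by 1.28 for their mean, beside a parental SD of 0.75. TamR lay inside the parental range, 0.54 below the parental mean but 0.48 above T0. The gene lay in an A stretch of 88 bins in each of the 6 libraries, and the 11 bins of its window hold 45 protein-coding gene starts, the most of the 9 windows.

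The 4 oxidation genes lay in A throughout, and TamR lay below the parental libraries at CYP1A1 and CYP2D6, above them at CYP1B1 and among them at CYP3A4. CYP1A1 (ENSG00000140465.15_10, chr15:75011883-75017877, minus strand) encodes an estrogen 2-hydroxylase. Its score was 13.23 at T0, 13.83 at T1, 13.95 at T4, 14.01 at T16, 14.72 at T24 and 11.58 in TamR. The E2 libraries all lay above T0 and TamR lay 2.37 below the parental mean, more than the whole parental range. The gap was not local to the gene. TamR lay below all 5 parental libraries in all 11 bins of the window, beside 12165 of all 27898 scored bins. It also did so in an unbroken run of 58 bins from 72500001 to 78300000 on chromosome 15, with 72 protein-coding starts. The run had a parental mean of 9.50 and a TamR mean of 7.48, a direction fixed by the way it was bounded. How long such runs are elsewhere was not counted. All 58 bins stayed in A in each library. CYP1A2, which shares the bin of CYP1A1, and CYP11A1, the side-chain cleavage enzyme of steroid synthesis, lie in the same run. The mean score of chromosome 15 was itself 0.52 lower in TamR than in the parental mean, which leaves a difference of -1.86 at CYP1A1 and of -0.25 at CYP19A1 when each library's chromosome mean is subtracted.

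CYP1B1 (ENSG00000138061.12_16, chr2:38294116-38337044, minus strand, body in 2 bins) encodes an estrogen 4-hydroxylase. Its score was 3.60 at T0, 3.08 at T1, 3.46 at T4, 2.53 at T16, 2.15 at T24 and 5.19 in TamR. The E2 libraries lay below T0, and TamR lay 2.22 above the parental mean. T24 was the lowest parental library in 11 of the 12 window bins, beside 8882 of all 27898 scored bins. CYP1B1 was the only member with TamR above the parental range, a position that 30.4% of all genes shared. It lay near one end of a run of 99 bins, from 28600001 to 38500000 on chromosome 2, in which TamR was above all 5 parental libraries. The mean score of that run was -0.35 over the parental libraries and 4.74 in TamR. That direction was fixed by the way the run was bounded. The run held 52 A bins at T0 and 98 in TamR, beside 12881 and 13274 of all 27898 scored bins. Of its bins, 46 lay in B at T0 and in A in TamR, beside 2141 of all 27898 scored bins. The bins of CYP1B1 were already in A at T0, and the A stretch around them grew from 26 bins at T0 to 43 in TamR. Its start moved from 37100001 to 35000001, while its end drew back from 39700000 to 39300000.

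**Figure D2:**
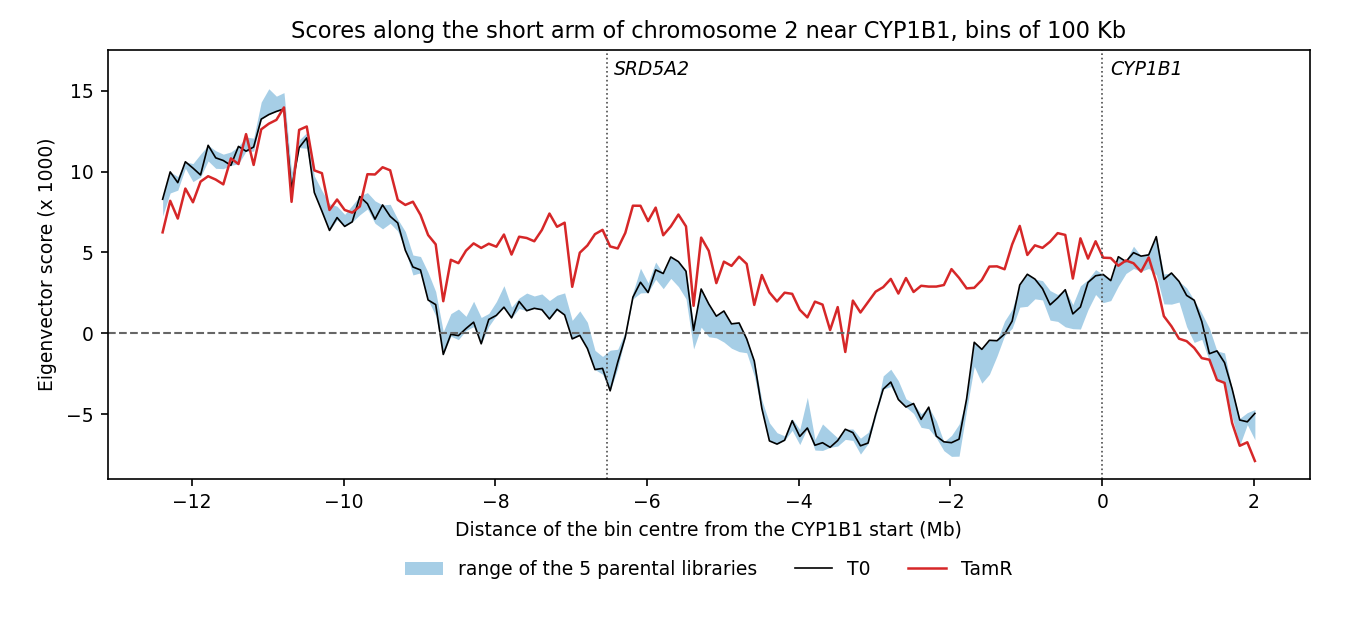
Scores of 100 Kb bins (y axis, multiplied by 1000) against distance from the start of CYP1B1 in Mb (x axis), with the range of the 5 parental libraries in blue, T0 in black and TamR in red, and dotted lines at CYP1B1 and SRD5A2. TamR runs above the parental band across 99 bins, and at CYP1B1 the band already lies above the border of 0.

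CYP2D6 (ENSG00000100197.23_11, chr22:42522501-42526867, minus strand) encodes the main enzyme that turns tamoxifen metabolites into endoxifen. Its score was 13.27 at T0, 13.57 at T1, 12.98 at T4, 12.83 at T16, 13.42 at T24 and 12.28 in TamR. The E2 libraries lay on both sides of T0, and the parental SD of 0.31 was the smallest of the 9 genes. TamR lay 0.94 below the parental mean, but the directly adjacent bins on either side were not below the parental range. Over the window, TamR lay below all 5 parental libraries in 5 of the 11 bins, beside 12165 of all 27898 scored bins. The difference at the gene was -0.39 after subtraction of the chromosome 22 mean. The gene lay in an A stretch of 156 bins in each library. CYP2D7, a close copy of CYP2D6, lies in the same bin, so the copies have the same values.

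CYP3A4 (ENSG00000160868.16_10, chr7:99354583-99381871, minus strand) encodes an enzyme that N-demethylates tamoxifen and oxidises estrogens. Its score was 7.94 at T0, 8.11 at T1, 8.84 at T4, 9.27 at T16, 8.92 at T24 and 8.82 in TamR. All E2 libraries lay above T0, by 0.84 for their mean, and TamR lay within the parental range, 0.20 above the parental mean. Over the 11 bins of the window the sign was opposite, with TamR 0.70 below the parental mean of 10.29. CYP3A7, the fetal form, shares the bin of CYP3A4 and so has the same values.

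**Figure D3:**
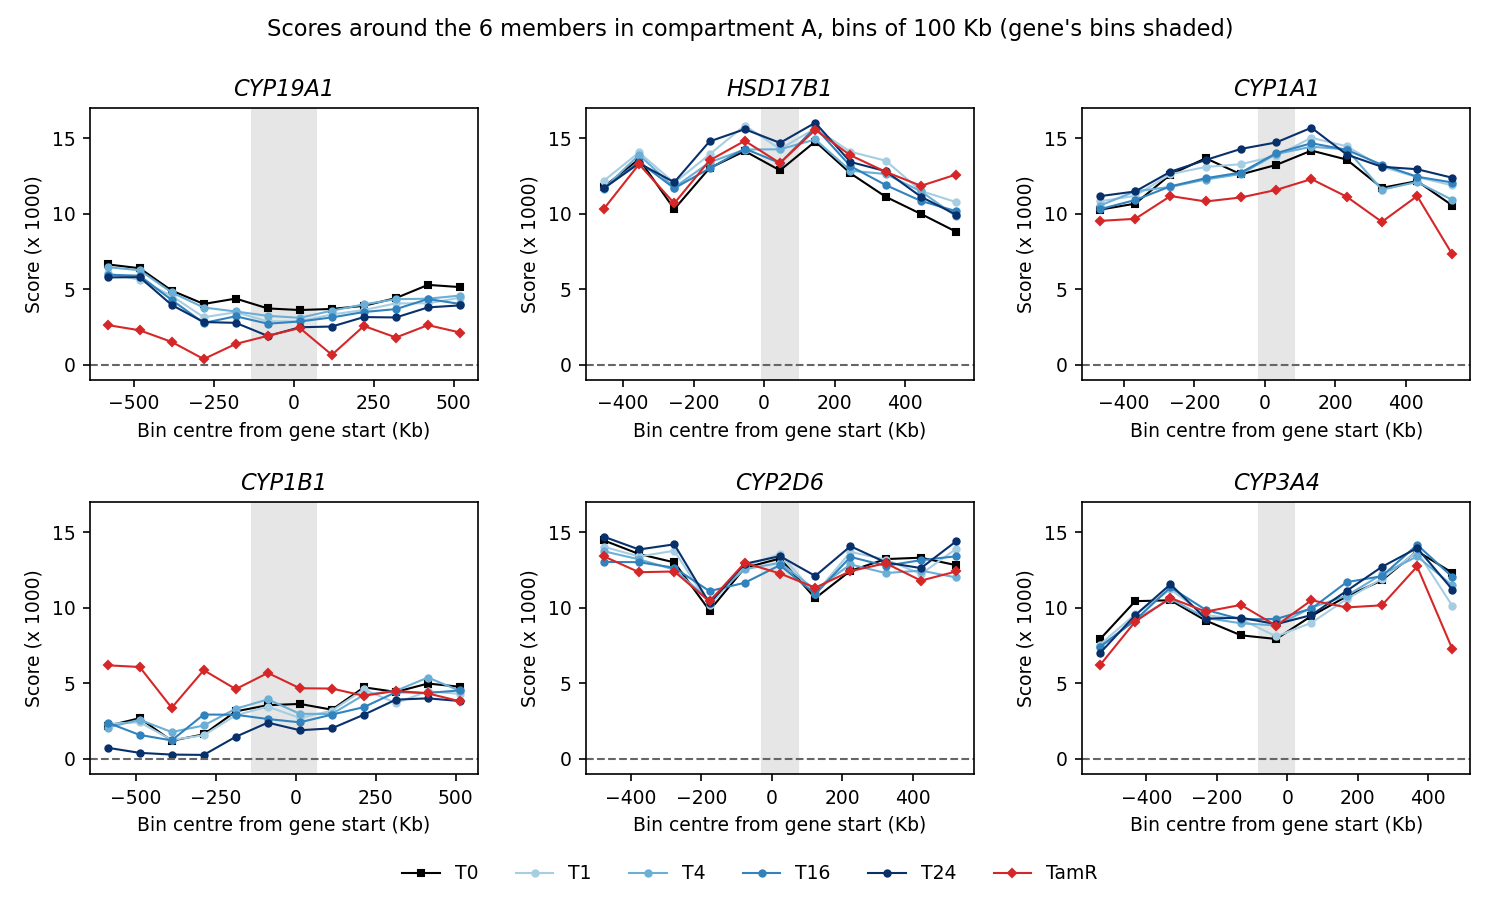
Scores of the 100 Kb bins (y axis, multiplied by 1000) around the 6 genes that lay in A in every library, against distance of the bin centre from the gene start in Kb along the chromosome (x axis), with the gene's own bins shaded and colours as in the plot of members. TamR (red) lies below the parental lines in all 11 bins around CYP1A1 and in 11 of 12 around CYP19A1, and above them in 8 of 12 around CYP1B1. Of all 27898 scored bins, TamR lies below in 12165 and above in 9769.

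The 3 conjugation genes lie within 23 bins of chromosome 4, from 69000001 to 71300000, and their windows share bins, so they were read together. TamR lay below all 5 parental libraries at each of them. UGT2B15 (ENSG00000196620.10_9, chr4:69512315-69536370, minus strand) encodes a glucuronosyltransferase of androgens and of 4-hydroxylated tamoxifen metabolites. Its score was 0.90 at T0, -0.26 at T1, 0.44 at T4, 0.56 at T16, -0.21 at T24 and -2.03 in TamR. The parental scores lay on both sides of the border, with T1 and T24 in B, within a range of 1.16 and an SD of 0.50. TamR lay 2.32 below their mean.

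UGT2B7 (ENSG00000171234.14_7, chr4:69917081-69978705, plus strand) encodes a glucuronosyltransferase of catechol estrogens. Its score was 0.96 at T0, 0.09 at T1, 0.83 at T4, 0.67 at T16, -0.57 at T24 and -4.25 in TamR. T24 was the only parental library in B, with an SD of 0.64 over the parental libraries. TamR lay 4.65 below the parental mean, the largest difference of the 9 genes, at the 1.38 percentile of the same difference over all protein-coding genes. SULT1E1 (ENSG00000109193.12_10, chr4:70706930-70725863, minus strand) encodes the sulfotransferase with the highest affinity for estradiol. Its score was -3.19 at T0, -3.76 at T1, -3.59 at T4, -3.45 at T16, -4.31 at T24 and -5.76 in TamR. It lay in B in every library, as did all 11 bins of its window, and TamR lay 2.10 below the parental mean.

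Across the 23 bins, 5 lay in A at T0, 4 at T1, 9 at T4, 4 at T16, 0 at T24 and 0 in TamR. Of all 27898 scored bins, 12881 lay in A at T0, 12839 at T1, 13085 at T4, 12905 at T16, 12278 at T24 and 13274 in TamR. Those of the 23 that were in A in any parental library formed 1 unbroken stretch of 9, from 69200001 to 70100000, which holds UGT2B15 and UGT2B7. The mean score of this stretch was 0.37 at T0, -0.02 at T1, 0.74 at T4, 0.16 at T16, -0.68 at T24 and -3.17 in TamR. The parental values thus lay on both sides of the border and within 1 unit of it, and T24 already gave the compartment calls of TamR, at a score much nearer the border. At T24 the stretch was part of a B run of 138 bins from 57900001 to 71700000, and in TamR of a B run of 136 bins. TamR lay below all 5 parental libraries in 20 of the 23 bins, beside 12165 of all 27898 scored bins. It did so in all 9 bins of the stretch. Those 9 were chosen for a score above 0 in at least 1 parental library, which favours a lower TamR score there. An unbroken run of 17 bins with TamR below all 5 parental libraries, from 69200001 to 70900000, holds all 3 members and 19 protein-coding starts. The run had a parental mean of -1.55 and a TamR mean of -4.39, a direction fixed by the way it was bounded. When UGT2B15 and UGT2B7 were given by the mean of their windows, which reach into B on both sides, neither differed in compartment between T0 and TamR, at -0.09 and -0.74 at T0.

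**Figure D4:**
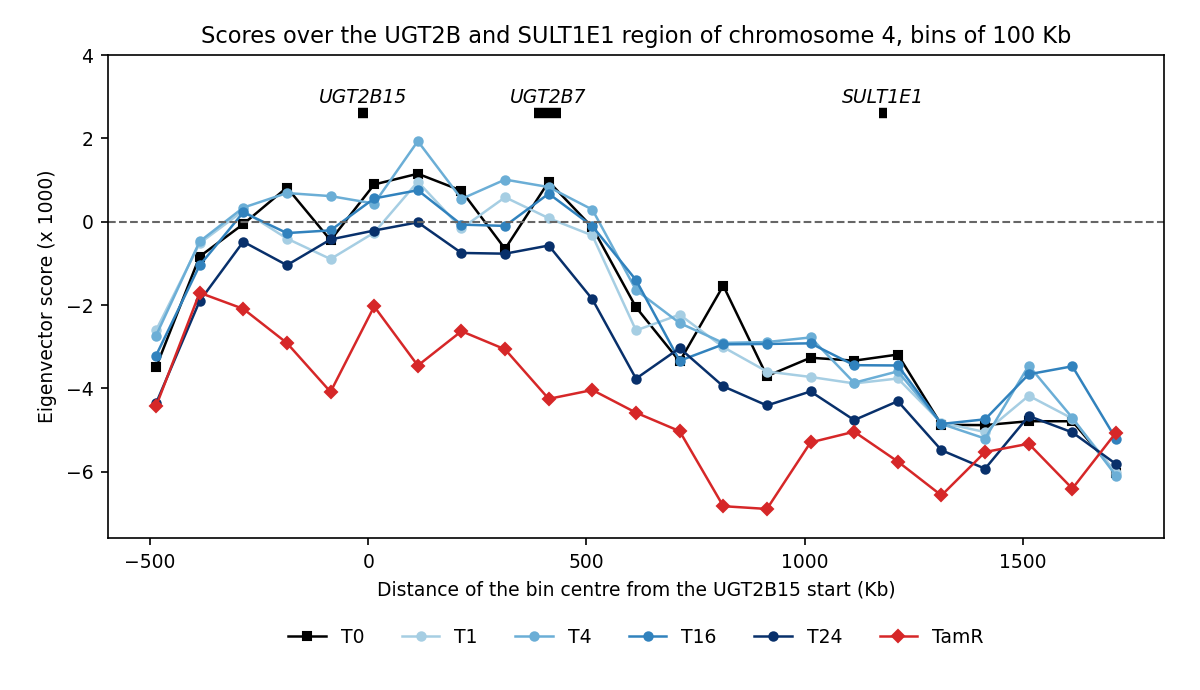
Scores of 23 bins of 100 Kb on chromosome 4 (y axis, multiplied by 1000) against distance of the bin centre from the UGT2B15 start in Kb (x axis), 1 line per library, with black bars at the 3 member genes. The parental lines stay close to the border of 0 over the 9 bins around UGT2B15 and UGT2B7 and below it around SULT1E1, and TamR lies below 0 in all 23 bins.

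The genes whose start bins lay in A at T0 and in B in TamR in these windows were TMPRSS11E, a transmembrane serine protease, UGT2B15, UGT2B10, a glucuronosyltransferase of nicotine and other amines, and UGT2B7. TMPRSS11E had a score of 0.82 at T0 and -2.91 in TamR, and UGT2B10 had 1.15 at T0 and -3.45 in TamR. No gene start in the windows of the other 7 members lay in a bin with that difference, out of 6 starts around CYP1B1 to 45 around HSD17B1. UGT2B genes are close copies of each other, and how reads were divided among the copies was not tested.

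Over the E2 time course, the 9 genes split by direction. At CYP19A1, CYP1B1, SULT1E1, UGT2B15 and UGT2B7, all 4 E2 libraries lay below T0, which makes 5 of 9, beside 25.4% of all genes, and 3 of the 5 share the chromosome 4 region. At HSD17B1, CYP1A1 and CYP3A4, all 4 lay above T0, which makes 3 of 9, beside 27.3% of all genes. The differences of the E2 mean from T0 ran from -0.92 at CYP19A1 to 1.28 at HSD17B1. T24 was the lowest parental library at 4 genes, CYP19A1, CYP1B1, SULT1E1 and UGT2B7, where the background was 28.8%. It was the highest at 2 genes, HSD17B1 and CYP1A1, where the background was 35.2%. The 4 E2 libraries share the single T0 library, so their positions against it are not independent. UGT2B15 and UGT2B7 were the 2 genes whose compartment differed from T0 at 1 or more E2 time points, as it did for 5.31% of all genes, and both lay within 1 unit of the border in each parental library. Neither differed at any E2 time point when the median score of each library, rather than 0, was taken as the border. The directions above are those of the genes' own bins. By window means, T4 lay above T0 at CYP1B1, SULT1E1, UGT2B15 and UGT2B7, and T1 lay below T0 at CYP3A4. CYP19A1 kept all 4 E2 libraries below T0, and HSD17B1 and CYP1A1 kept all 4 above it. Window directions over all genes were not counted.

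The GC content of the members' bins did not follow the direction of the E2 differences throughout. Over all bins, scores correlated with GC content at 0.713 to 0.747 within libraries, and the difference between T24 and T0 correlated with it at 0.200, given as descriptions over bins that share libraries and neighbours. The bins of HSD17B1, CYP1A1 and CYP3A4 had a GC content of 49.0%, 51.0% and 41.3%. Those of SULT1E1, UGT2B15 and UGT2B7 had 34.6%, 36.6% and 35.7%, below the median of 39.8% over scored bins, while those of CYP19A1 and CYP1B1, also with E2 below T0, had 44.4% and 41.0%. The bin of CYP2D6, where the E2 mean differed from T0 by -0.07 and T24 alone by 0.15, had 49.4%. The E2 directions of the members rest on all E2 libraries, while the correlation is for T24 alone. The part of GC content in the E2 differences was not tested. The difference between TamR and the parental mean correlated with GC content at -0.0141.

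Between TamR and the parental libraries, 6 of the 9 genes had TamR below all 5 parental scores: CYP19A1, CYP1A1, CYP2D6, SULT1E1, UGT2B15 and UGT2B7. The same held for 46.7% of all genes, and 3 of the 6 genes share 1 region, so nothing particular to the members is read from the count. The median difference was -0.94 over the 9 genes and -0.45 over all protein-coding genes. Relative to that shift, UGT2B7, CYP1A1, UGT2B15 and SULT1E1 lay lowest among the members, at percentiles of 1.38, 10.8, 11.3 and 14.2 of all genes. CYP2D6, CYP19A1 and HSD17B1 lay at percentiles of 37.9, 42.3 and 47.8, in the middle of the distribution. CYP3A4 and CYP1B1 lay at 63.9 and 87.1.

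**Figure D5:**
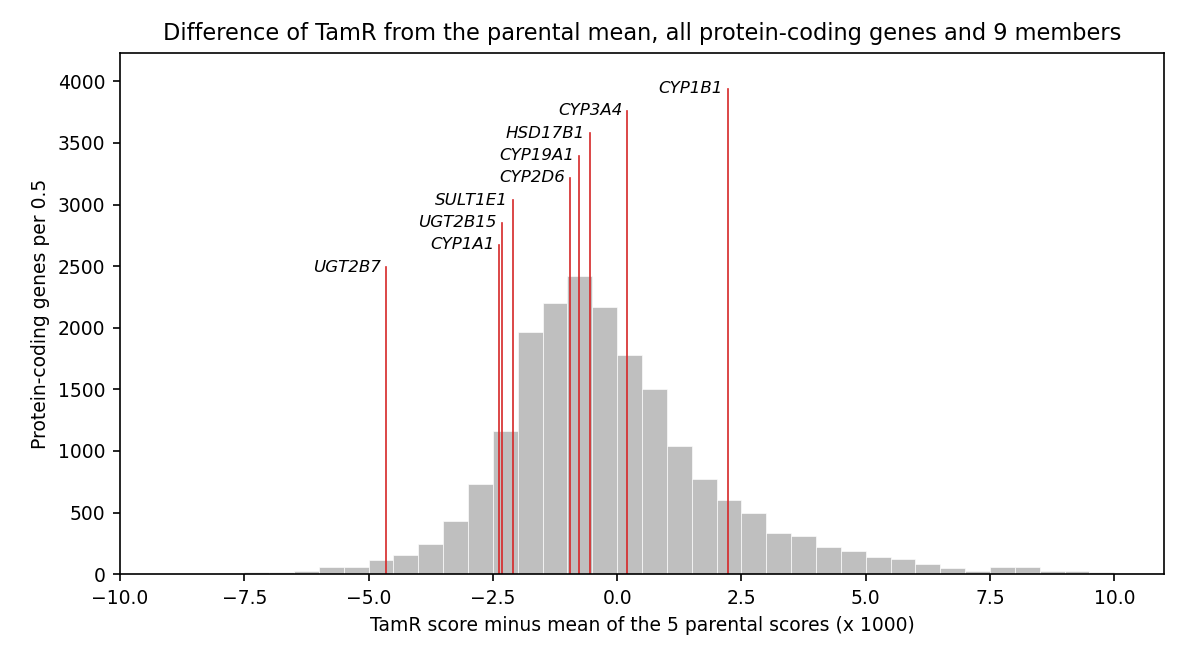
Number of protein-coding genes (y axis) per 0.5 of the difference between the TamR score and the mean of the 5 parental scores (x axis, multiplied by 1000), with red lines at the 9 members. UGT2B7 at -4.65 lies in the lower tail and CYP1B1 at 2.22 on the upper side, and the other 7 lie between -2.37 and 0.20.

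A wider list of 85 genes of the same pathways was read in the same way, and 84 had a score. TamR lay below all parental libraries at 47 of them and above all at 21, beside shares of 46.7% and 30.4% over all protein-coding genes. The median difference from the parental mean was -0.86. In compartment, 3 of the 84 lay in A at T0 and in B in TamR, 1 lay in B at T0 and in A in TamR, and 7 differed from T0 at 1 or more E2 time points, where the shares over all genes were 4.46%, 5.15% and 5.31%. Of the 3, UGT2B10 and UGT2A3 are neighbours of UGT2B15 and UGT2B7. UGT2A3, another glucuronosyltransferase, scored 0.05 at T0, close to the border, and -2.85 in TamR. Its T0 score is the mean of bins at 0.75 and -0.65, and its start lies in the latter. HSD17B12, a reductase of long-chain fatty acids and estrone on chromosome 11, scored 1.97 at T0 and -0.12 in TamR, close to the border.

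The 1 gene that lay in B at T0 and in A in TamR was SRD5A2, a steroid 5α-reductase, which scored -2.86 at T0 and 5.89 in TamR and lies in the 99-bin run of CYP1B1. Large differences from the parental mean without a change of compartment were found at FMO1 and UGT2B4. FMO1, a flavin monooxygenase that N-oxidises tamoxifen, scored -5.09 at T0 and -1.09 in TamR and lay in B throughout. UGT2B4, a bile acid glucuronosyltransferase between UGT2B7 and SULT1E1, scored -1.54 at T0 and -6.83 in TamR.

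By group, read against 46.7% of all genes with TamR below all parental libraries and 30.4% with it above, the glucuronidation genes had TamR below at 18 of 19. These counts rest on few places, since the UGT2 genes lie in the chromosome 4 region and the UGT1A genes share bins on chromosome 2. The group's median difference was -1.32. Methylation and thiol conjugation genes had TamR below at 5 of 8 and above at 1, with a median of -1.85, and the sensor genes had it below at 6 of 11 and above at 3, with a median of -0.75. AHR and NR1I2 were among the 3 above. Sulfation genes had TamR below at 3 of 9 and above at 3, with a median of -1.29. The steroid synthesis group had it below at 9 of 21 and above at 7, with a median of -0.02. The other oxidation genes had it below at 6 of 16 and above at 6, also with a median of -0.02, and all 16 kept 1 compartment in all libraries.

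Genes on other chromosomes with the most similar scores to UGT2B15 over the 6 libraries, by Euclidean distance among 18969 genes, were LDOC1 on chromosome X, G6PC2 on chromosome 2 and GJB7 on chromosome 6, at distances of 0.724, 0.765 and 0.786. Those nearest to UGT2B7 were COL4A4 and ERBB4 on chromosome 2 and SH2D4B on chromosome 10, at distances of 0.815, 0.860 and 0.876. ERBB4, a receptor tyrosine kinase of the epidermal growth factor receptor family, scored 0.50 at T0, 0.08 at T1, 0.49 at T4, 0.10 at T16, -0.57 at T24 and -4.53 in TamR. All 6 lay in A at T0 and in B at T24 and in TamR, which follows largely from choosing them by these same scores. With 6 values a gene, these distances describe likeness in these libraries only.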

How the data were processed

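TCC was measured in 6 T47D libraries, 1 per condition, grouped by the sample labels. The authors deposited a score per 100 Kb bin, the first eigenvector from HiCLib, after iterative bowtie2 alignment to hg19, removal of low-coverage bins, iterative correction and removal of contacts within chromosomes. Depth and pooling of T47D replicates are not given in the sources used here. A score of exactly 0 was read as no score and left out.

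A gene's value was the mean score, multiplied by 1000, of the bins overlapping its body (GENCODE release 44 lifted to GRCh37, whose chromosome lengths match the bins). Counts of members were read beside the same count over 19707 protein-coding genes, and no test between conditions was made. Upstream sequences were taken from RefSeq (GRCh38) and matched exactly in GRCh37. Calls were tested on simulated scores. Python 3.11.15, numpy 2.4.6, pandas 2.3.3 and matplotlib 3.10.9 were used.

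The members, gene lists and tests were chosen with earlier results of these data known. Named were all 9 members; wider-list genes whose compartment differed between T0 and TamR and the 3 others with the largest difference between TamR and the parental mean; at most 5 window genes, in genome order, whose start bins differed in compartment between T0 and TamR; and, for each member that differed, the 3 nearest genes by Euclidean distance on other chromosomes. Genes sharing a bin or region with a member (CYP1A2, CYP11A1, CYP2D7 and CYP3A7) were named after their values were seen. A result that the rule names is not reported here. Alternatives were other definitions of a gene's value, border, scale, bin size and reference, and each E2 library left out.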

Additional observations from a re-analysis of the deposited data

How the results depend on the processing

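Of 89 alternative counts, 79 stayed within 1.5 times the value reported. The 2 members whose compartment differed between T0 and TamR became 0 with T24 in place of T0 and 0 with the window mean of 5 bins on either side. The 2 members that differed from T0 under E2 became 1 without T24, 1 with the window mean, and 0 both with the median score as border and with the chromosome mean subtracted. The 1 member with TamR above the parental range became 2 with 500 Kb bins. The 4 wider-list genes that differed between T0 and TamR became 8 with 500 Kb bins, 8 with the median border and 14 with the chromosome mean subtracted. UGT2B15 and UGT2B7 lie near the border in the parental libraries, and the cause of the other changes was not tested.

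Of 99 alternative differences of TamR from the parental mean, 81 moved by less than the SD over the 5 parental libraries and 18 by more, and of 90 differences of E2 from T0, 86 and 4. No difference with TamR outside the parental range changed sign. The differences at CYP3A4 and HSD17B1, which lie inside it, did: -0.70 at CYP3A4 with the window mean and -0.19 with the chromosome mean subtracted, and 0.48 at HSD17B1 against T0 alone, 0.12 with the window mean and 0.026 with 500 Kb bins. The E2 difference of -0.07 at CYP2D6 lies close to 0 and was 0.11 with the window mean. No paired analysis was possible because the conditions have 1 library each. Depth is unknown from these files, so its effect could not be assessed.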
